A study of Mus musculus with 24 samples.

Results

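Whole pancreas of male C57Bl/6J mice, an inbred laboratory strain, was compared on day 9 between 3 circadian disrupted and 3 normal circadian animals. These 6 mice were chosen by their titles from 24 mice in 8 groups of 3, which cover both conditions in males on days 1 and 9 and in females on days 1 and 8. All 6 were taken at zeitgeber time 200 h, which is clock hour 8 of the light schedule, so that only the condition separates the groups in the labels. The labels do not say how the rhythm was disrupted, from which event days were counted, or how old the mice were. Nor do they mention any genetic alteration, pooling of animals or drug in either group. The series' title speaks of early and late re-entrainment, in which clocks adjust to a light cycle, and day 9 is the late time point of the males.

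The circadian clock of a cell is a feedback loop. BMAL1 (encoded by Arntl) and CLOCK switch on genes through E-box sequences, among them the period and cryptochrome genes, whose proteins then shut their activators off. A second arm runs through REV-ERB and ROR receptors, which set the level of Arntl, and an output arm runs through the PAR bZIP factors DBP, TEF and HLF, which bind D-boxes. Immediate early genes such as Fos, Egr1 and Dusp1 are switched on within minutes by growth factors, hormones, calcium signals or stress without new protein being made, and their transcripts decay fast.

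The 6 libraries held 31512327 to 39067593 expected counts each, and 17983 to 18789 genes were detected per mouse. The 10 most abundant genes took 57.5% to 60.0% of the counts, and the acinar marker genes, those of the enzyme-secreting cells, summed to 408337 to 449382 CPM (counts scaled to a common library size). Levels in CPM are not per transcript length, so they are compared between mice and never between genes. In a bulk sample, fewer cells of a type and less RNA per cell cannot be told apart.

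On day 9 few genes passed the test for a difference between the pancreas of disrupted and of normal mice. Among them were stimulus-induced genes that were lower, such as Egr1, Fos, Junb, Dusp1, Zfp36 and Thbs1, and clock genes, with Per3, Ciart, Tef and Bhlhe40 higher and Arntl lower. Of 14000 genes tested, 97 passed at an adjusted p of 0.05 in edgeR's quasi-likelihood test (0.693%), 32 of them higher (0.229%) and 65 lower (0.464%) in the disrupted mice. Past a 2-fold change lay 7 of the higher and 27 of the lower genes. An unadjusted p under 0.05 was found for 1541 of the genes tested (11.0%). With 3 mice per group, a gene that did not pass is not shown to be unchanged. In all 97 the 3 disrupted mice lay wholly on one side of the 3 normal mice, as they did above them in 8.16% and below them in 8.62% of all genes tested. In 19 of the 65 lower genes the 3 normal mice exceeded all other 21 mice (0.414%), and in 10 the 3 disrupted mice lay below them (0.514%). In 11 of the 32 higher genes the 3 disrupted mice exceeded all other 21 mice (0.8%), and in 3 the 3 normal mice lay below them (0.207%). The stimulus-induced lists held 19 of the 97 genes, all of them lower, the clock lists held 6, and 72 genes belonged to neither.

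The count of 97 depended on single mice: it was 18 without normal male 3, 20 without disrupted male 3, 24 without disrupted male 1 and 47 without disrupted male 2. It was 60 when the 6 day 9 males were fitted alone and 42 with the 12 males alone. With a mouse left out, 13 to 28 stimulus-induced genes were lower and 0 to 7 core clock genes were called, the highest counts of both without normal male 2.

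**Figure D1:**
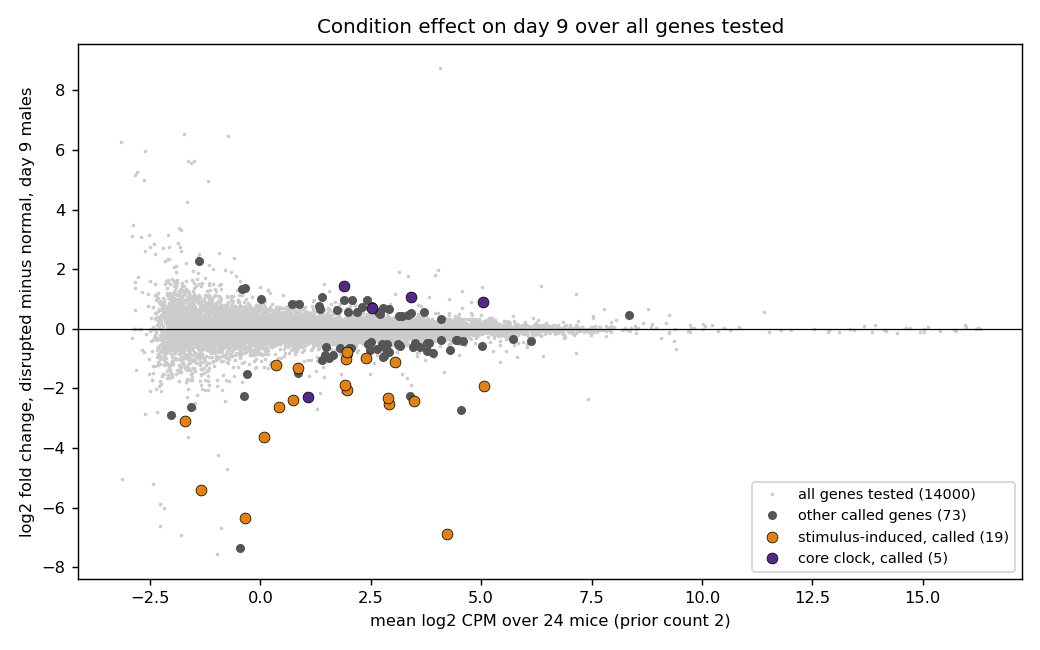
Condition effect in day 9 males over the 14000 genes tested, with the mean log2 CPM over the 24 mice on the x axis and the log2 fold change, disrupted minus normal, on the y axis. Grey points are all genes, dark grey points the 73 called genes outside the lists shown, orange points the 19 called stimulus-induced genes, all below 0, and purple points the 5 called core clock genes, 4 above and 1 below 0.

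The start regions of a few of these genes are shown because they carry the sequence elements through which the clock loop and the stimulus pathways are known to act. Each window runs from 250 bases before to 50 bases after a RefSeq transcript start, on GRCm38.p6, written 5′ to 3′ on the strand of the gene. Both strands were searched for the E-box CACGTG, the D-box TTANGTAA, the cAMP response element TGACGTCA, and, by name, the serum response element and the ROR response element. Capitals mark the matches. First come 3 core clock genes, Ciart (chr3:95882179-95882478, minus strand), Per3 (chr4:151044616-151044915, minus strand) and Arntl (chr7:113207261-113207560, plus strand, the downstream one of 2 windows), with E-boxes in Ciart, D-boxes in Per3 and a ROR response element in Arntl:
Ciart: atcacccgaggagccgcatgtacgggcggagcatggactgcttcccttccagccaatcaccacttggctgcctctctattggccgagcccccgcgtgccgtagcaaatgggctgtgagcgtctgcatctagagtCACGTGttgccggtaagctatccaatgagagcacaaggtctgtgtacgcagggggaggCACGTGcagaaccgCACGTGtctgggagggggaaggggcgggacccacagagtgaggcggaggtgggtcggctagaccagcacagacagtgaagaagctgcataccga
Per3: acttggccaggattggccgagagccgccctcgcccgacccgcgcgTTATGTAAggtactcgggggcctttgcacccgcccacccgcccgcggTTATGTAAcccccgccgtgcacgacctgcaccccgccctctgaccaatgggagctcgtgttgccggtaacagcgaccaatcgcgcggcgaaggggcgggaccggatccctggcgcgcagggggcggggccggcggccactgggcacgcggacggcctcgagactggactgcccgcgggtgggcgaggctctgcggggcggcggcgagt
Arntl: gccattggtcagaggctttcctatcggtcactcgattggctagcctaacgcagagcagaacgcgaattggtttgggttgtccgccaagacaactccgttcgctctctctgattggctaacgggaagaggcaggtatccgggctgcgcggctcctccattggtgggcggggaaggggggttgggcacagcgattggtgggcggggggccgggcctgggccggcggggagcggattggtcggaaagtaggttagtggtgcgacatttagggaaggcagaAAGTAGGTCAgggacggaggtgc

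Then come 3 stimulus-induced genes, Dusp1 (chr17:26508423-26508722, minus strand), Btg2 (chr1:134079106-134079405, minus strand) and Zfp36 (chr7:28379179-28379478, minus strand), with a cAMP response element in Dusp1 and Btg2, an E-box in Dusp1 and a serum response element in Zfp36:
Dusp1: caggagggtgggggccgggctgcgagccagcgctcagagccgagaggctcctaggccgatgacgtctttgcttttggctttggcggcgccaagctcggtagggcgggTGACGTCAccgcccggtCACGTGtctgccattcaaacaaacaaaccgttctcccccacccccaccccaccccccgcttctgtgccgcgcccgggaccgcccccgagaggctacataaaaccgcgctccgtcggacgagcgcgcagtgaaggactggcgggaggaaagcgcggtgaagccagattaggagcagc
Btg2: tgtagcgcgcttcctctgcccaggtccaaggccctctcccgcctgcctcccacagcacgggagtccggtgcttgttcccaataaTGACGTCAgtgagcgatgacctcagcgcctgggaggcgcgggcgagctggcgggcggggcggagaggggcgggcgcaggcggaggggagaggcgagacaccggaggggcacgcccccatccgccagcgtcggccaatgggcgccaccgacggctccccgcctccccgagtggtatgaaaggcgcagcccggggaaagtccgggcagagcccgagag
Zfp36: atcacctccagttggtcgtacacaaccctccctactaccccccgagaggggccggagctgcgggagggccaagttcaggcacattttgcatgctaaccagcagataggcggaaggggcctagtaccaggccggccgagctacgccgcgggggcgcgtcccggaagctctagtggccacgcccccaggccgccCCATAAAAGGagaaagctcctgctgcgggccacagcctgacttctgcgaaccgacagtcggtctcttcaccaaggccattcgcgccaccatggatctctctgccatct

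Among 32841 windows of this length in the RefSeq table, 7.15% held the E-box, 2.32% the D-box, 1.79% the cAMP response element, 1.63% the serum response element and 0.773% the ROR response element. Of the 27 core clock genes 21 had at least 1 window, and 5 of these held an E-box, 2 a D-box, 1 a cAMP response element and 1 a ROR response element in any of their windows. Of the 19 called stimulus-induced genes 13 had a window, of which 2 held a cAMP response element, 2 a serum response element and 2 an E-box. The shares count windows, whereas the gene counts take a match in any of 29 windows of the clock and 20 of the stimulus-induced genes. A gene with several windows had more chances of a match, so the 2 measures are unlike. A match is a description of these letters and does not show that a factor binds there.

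The AP-1 family of transcription factors forms dimers of Fos and Jun proteins that carry fast signals to the genome. Of 10 measured members 5 were lower and none was higher, where 0.464% and 0.229% of all genes tested were. Fos was at 7.99, 1.19 and 3.02 CPM in normal males 1, 2 and 3 and at 0.127, 0 and 0 CPM in disrupted males 1, 2 and 3. All 3 normal mice lay above the disrupted mice, and also above the highest of the other 18 mice at 0.655 CPM. Fos spans chr12:85473890-85477273 on the plus strand of GRCm38. Its fitted log2 fold change was -6.36 ± 0.86 (SE, adjusted p = 0.00139). It rests on 5, 0 and 0 counts in the disrupted mice, so its size is uncertain.

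Junb, the AP-1 partner that is often induced with Fos, stood at 8.69, 3.79 and 7.82 CPM in the normal and at 1.90, 0.938 and 1.01 CPM in the disrupted mice. The remaining 18 mice did not exceed 1.63 CPM, and normal male 2 lay between its group mates and the disrupted mice. The change was -2.38 ± 0.32 (adjusted p = 0.00139). Jun fell by 2.31 ± 0.45 (adjusted p = 0.0263), from 37.5, 6.99 and 31.4 CPM to 4.82, 5.78 and 4.64 CPM, so that normal male 2 stood close to the disrupted mice.

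Fosb fell by 3.08 ± 0.61 (adjusted p = 0.0135), from 1.06, 0.708 and 2.09 CPM to 0.152, 0.0907 and 0.202 CPM, that is, to 6, 3 and 7 counts. For Fosl2, a slower member of the family, the normal mice were at 5.07, 4.93 and 7.64 CPM and the disrupted mice at 3.25, 2.51 and 2.82 CPM, a fall of 1.03 ± 0.18 (adjusted p = 0.00346). The groups did not overlap for either gene. The family median was -1.44, against 0.00 over all genes tested, and 8 of the 10 members had all 3 disrupted mice below all 3 normal mice, which held for 8.62% of all genes tested.

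The EGR, NR4A and KLF factors are zinc finger proteins and nuclear receptors that switch on a second wave of genes. Of 11 measured members 2 were lower (0.464% of all genes tested), and all 11 had a negative change, with a median of -1.08. Egr1 (chr18:34859823-34864984, plus strand) ran at 267, 20.5 and 116 CPM in the normal mice and at 1.22, 1.06 and 1.07 CPM in the disrupted mice. The disrupted mice were close to each other, whereas the normal mice spread widely, all of them above the remaining 18 mice, whose highest value was 14.4 CPM. Its change of -6.90 ± 0.95 (adjusted p = 0.00257) was the largest fall among genes with a mean log2 CPM of at least 1. Egr2, a relative of Egr1, fell by 5.41 ± 0.97 (adjusted p = 0.0101), from 2.43, 1.05 and 1.72 CPM to 0.0254, 0.0302 and 0.0576 CPM, that is, to 1, 1 and 2 counts.

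**Figure D2:**
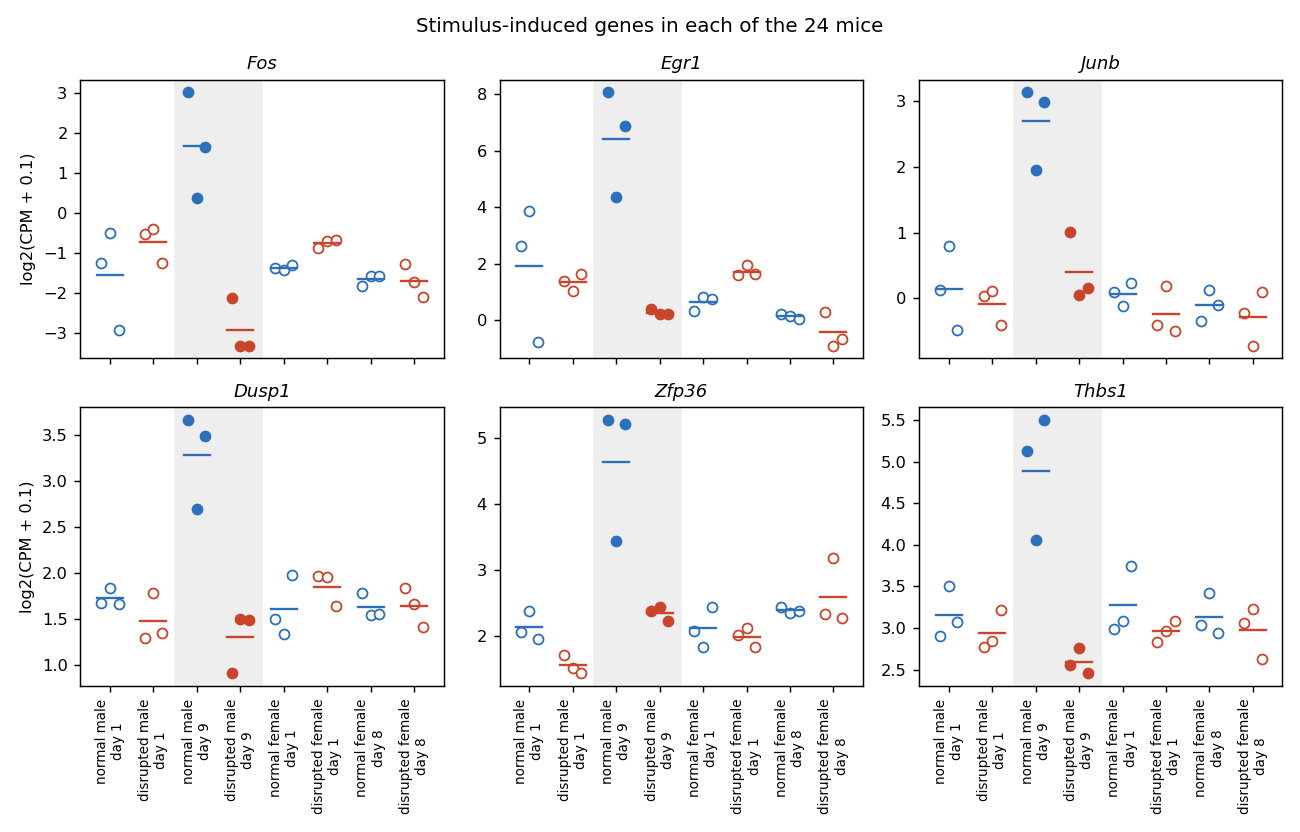
Levels of 6 stimulus-induced genes as log2(CPM + 0.1), 1 point per mouse, in the 8 groups of 3 mice, with blue for normal circadian and red for disrupted mice, filled points for day 9 males on a grey ground and lines for group means on this scale. The 3 normal day 9 males lie above the other 21 mice in all 6 panels, and normal male 2 (the middle point) is the lowest of the 3.

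Feedback regulators of the immediate early response damp the signals that induce them. Of 30 measured members 9 were lower (0.464% of all genes tested), with a list median of -0.82. Dusp1 (chr17:26505590-26562128, minus strand), a phosphatase that switches MAP kinases off, had the smallest adjusted p of all genes, 7.19e-05, with a change of -2.06 ± 0.22. Its levels were 12.5, 6.37 and 11.1 CPM in the normal and 1.78, 2.72 and 2.71 CPM in the disrupted mice. The remaining 18 mice lay between 2.35 and 3.83 CPM, so that the 3 normal day 9 males stood alone. The strand setting of the counting is not given in the sources used here, and exons of Ergic1 overlap Dusp1 on the opposite strand, so that reads of the pair cannot be told apart. The same holds for the stimulus-induced genes Junb with Prdx2, Jun with Junos, Zfp36 with Gm44710, Thbs1 with Gm29233, Csrnp1 with 1700019L13Rik and Spry1 with Gm42922. Among other called genes it holds for Arntl with Gm45355, Tef with Gm17597, Bhlhe40 with 0610040F04Rik, Pdxk with 4921516A02Rik, Plk3 with Tctex1d4, Coq8a with Cdc42bpa and Ctnnbip1 with Gm13066. Of the clock genes that were not called, Dbp (with Sphk2), Bhlhe41, Btrc, Cry2, Csnk1d, Csnk1e, Nr1d1, Rora, Timeless and Usp2 also have such an overlap.

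Zfp36 encodes tristetraprolin, which marks AU-rich transcripts for decay. It was at 38.5, 10.7 and 36.8 CPM in the normal and at 5.08, 5.32 and 4.58 CPM in the disrupted mice, a fall of 2.52 ± 0.36 (adjusted p = 0.00277). Btg2, a brake on cell division, fell by 1.92 ± 0.35 (adjusted p = 0.0162), from 127, 38.4 and 146 CPM to 29.8, 27.5 and 25.0 CPM. In both genes normal male 2 was the nearest of its group to the disrupted mice. Ier2, an immediate early gene of less settled function, fell by 1.89 ± 0.31 (adjusted p = 0.0069), from 14.2, 4.95 and 10.7 CPM to 2.36, 2.33 and 3.34 CPM.

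Some feedback regulators separated the groups without that spread. Sik1, a kinase induced by cAMP that restrains CREB signalling, was at 14.4, 14.4 and 13.7 CPM in the normal and at 6.12, 6.90 and 6.54 CPM in the disrupted mice. Each group spanned less than 1 CPM and the gap between them was far wider, with a change of -1.12 ± 0.17 (adjusted p = 0.00277). Nfkbia, the inhibitor of NF-kappa B and a target of it, fell by 0.99 ± 0.16 (adjusted p = 0.00188), from 9.11, 6.88 and 8.65 CPM to 4.21, 4.57 and 3.57 CPM.

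The Sprouty genes, which encode inhibitors of receptor tyrosine kinase signalling, were lower as well. Spry4 was at 1.82, 1.56 and 2.22 CPM in the normal and at 0.812, 0.817 and 0.749 CPM in the disrupted mice, a fall of 1.23 ± 0.21 (adjusted p = 0.00323). Spry1 fell by 0.77 ± 0.17 (adjusted p = 0.0263) from 4.86, 4.61 and 5.60 CPM to 2.59, 3.54 and 2.71 CPM. Csrnp1, a nuclear protein gene induced by AXIN1 signalling, fell by 1.32 ± 0.26 (adjusted p = 0.0125), from 3.28, 2.75 and 3.94 CPM to 1.02, 1.85 and 1.15 CPM. None of these groups overlapped.

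Among 9 measured genes for induced secreted and matrix proteins, 3 were lower (0.464% of all genes tested). Thbs1, the matrix glycoprotein thrombospondin 1, was at 34.7, 16.5 and 45.1 CPM in the normal and at 5.76, 6.65 and 5.39 CPM in the disrupted mice, a fall of 2.44 ± 0.31 (adjusted p = 0.00139). Ccn1, a matrix-associated signalling protein gene, fell by 3.65 ± 0.50 (adjusted p = 0.00139), from 5.44, 1.61 and 3.26 CPM to 0.330, 0.363 and 0.115 CPM, that is, to 13, 12 and 4 counts. The disrupted mice lay below the normal mice in both genes, and normal male 2 was the lowest of its group in each. A further list, YAP and SRF target genes, many of them cytoskeletal, had none of 10 measured members called, none with an unadjusted p under 0.05, and a median of -0.07.

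Over all 5 stimulus-induced lists 70 of 86 members were measured. Of these, 19 were lower and none higher, where 0.464% and 0.229% of all genes tested were. A negative change was found for 61 of the 70 (49.9% of all genes tested), and the median was -0.74. An unadjusted p under 0.05 was found for 40 of the 70, against 1541 of all 14000 genes tested (11.0%). The mean log2 CPM of these genes, centred over the 24 mice, was 0.97, 0.40 and 1.07 in normal males 1, 2 and 3 and -0.13, -0.23 and -0.23 in disrupted males 1, 2 and 3. The remaining 18 mice lay between -0.28 and 0.12, within reach of the disrupted day 9 males and below all 3 normal ones. In 18 of the 70 genes all 3 normal day 9 males exceeded the other 21 mice, which held for 0.414% of all genes tested, and 13 of these 18 were among the 19 called. In none of the 70 did the disrupted day 9 males lie wholly below the other 21 mice. Normal male 2 was the lowest normal mouse in 18 of the 19 called genes, and in 34.6% of all genes tested.

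Set beside day 1 males, the normal males of day 9 had 21 of the 70 genes higher and none lower, where 1.38% and 0.85% of all genes tested were called, with a median of 0.57. The disrupted males of day 9 had 7 higher and 4 lower, where 3.6% and 3.17% of all genes tested were called, with a median of -0.03. These 2 comparisons share their day 9 mice with the condition effect and are given only as values. In the fit of the 6 day 9 males alone, 8 of the 19 genes were called lower (Csrnp1, Egr2, Fosb, Fosl2, Sik1, Spry1, Spry4 and Nfkbia), while the 11 others, among them Fos (adjusted p = 0.257), Egr1 (adjusted p = 0.201) and Dusp1 (adjusted p = 0.103), were not. Leaving out 1 mouse ended no more than 7 of the 19 calls, that of Jun most often, in 5 of the 6 fits.

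The core clock lists held 27 genes, all measured. Of these, 4 were higher and 1 lower on day 9, where 0.229% and 0.464% of all genes tested were. An unadjusted p under 0.05 was found for 14 of them (11.0% of all genes tested). In 11 of the 27 all 3 disrupted mice lay above all 3 normal mice (8.16% of all genes tested) and in 7 below them (8.62%).

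Of 4 genes of the activator arm 1 was lower (0.464% of all genes tested). Arntl (chr7:113207465-113314126, plus strand), which encodes BMAL1, was at 0.881, 0.821 and 1.76 CPM in the normal and at 0.254, 0.242 and 0.202 CPM in the disrupted mice, with 10, 8 and 7 counts in the latter. The groups did not overlap, and the fall was 2.28 ± 0.41 (adjusted p = 0.00862). Npas2, an alternative partner of BMAL1, had overlapping groups and a change of -1.03 ± 0.76 (adjusted p = 0.672), Arntl2 one of -0.41 ± 0.16 (adjusted p = 0.317), and Clock one of -0.07 ± 0.20 (adjusted p = 0.943).

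Of 3 E-box repressors 2 were higher, and of 5 period and cryptochrome genes 1 (0.229% of all genes tested). Ciart, which represses BMAL1-driven transcription and whose E-boxes are shown above, was at 2.43, 1.98 and 2.49 CPM in the normal and at 6.07, 5.41 and 7.20 CPM in the disrupted mice. Its rise of 1.44 ± 0.26 (adjusted p = 0.0118) was the largest among called genes with a mean log2 CPM of at least 1. Bhlhe40, another repressor of E-box genes, rose by 0.69 ± 0.15 (adjusted p = 0.0326), from 6.32, 5.15 and 5.70 CPM to 8.91, 9.38 and 9.42 CPM, and its relative Bhlhe41 had a change of 1.13 ± 0.35 (adjusted p = 0.186) without overlap. For Per3 the normal mice stood at 7.84, 10.6 and 6.87 CPM and the disrupted mice at 16.1, 16.8 and 20.6 CPM, a rise of 1.08 ± 0.20 (adjusted p = 0.0149).

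Per2 had a change of the same size as Per3, 1.08 ± 0.26, but did not pass (adjusted p = 0.0673). Its levels of 11.0, 12.3 and 10.1 CPM in the normal and 22.4, 23.9 and 24.2 CPM in the disrupted mice were clearly apart. Per1 stood at 36.1, 31.6 and 45.5 CPM against 31.9, 32.3 and 32.4 CPM, with overlapping groups and a change of -0.23 ± 0.17 (adjusted p = 0.689). Cry1 had non-overlapping groups and a change of 1.11 ± 0.41 (adjusted p = 0.309), and Cry2, the second cryptochrome gene, one of 0.08 ± 0.16 (adjusted p = 0.905).

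Of the PAR bZIP output factors, Tef rose by 0.89 ± 0.18 (adjusted p = 0.028), from 25.0, 37.5 and 24.7 CPM to 52.1, 51.5 and 57.9 CPM. Dbp was at 8.48, 18.5 and 8.35 CPM in the normal and at 23.5, 21.3 and 26.6 CPM in the disrupted mice, a change of 1.01 ± 0.30 that did not pass (adjusted p = 0.183). In both genes normal male 2 lay nearest to the disrupted mice, and the groups did not overlap. Hlf had a change of 0.72 ± 0.25 (adjusted p = 0.234), and Nfil3, which competes with these factors for D-boxes, one of -0.91 ± 0.47 (adjusted p = 0.506).

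None of the REV-ERB and ROR receptor genes passed. Nr1d2 was at 28.4, 30.6 and 28.0 CPM in the normal and at 39.4, 39.1 and 41.9 CPM in the disrupted mice, the latter above all other 21 mice, with a change of 0.47 ± 0.26 (adjusted p = 0.56). Nr1d1, its paralog, had a change of the opposite sign, -0.57 ± 0.41 (adjusted p = 0.671), from 24.0, 33.7 and 22.8 CPM to 17.0, 19.2 and 18.1 CPM. Exons of Nr1d1 overlap Thra, a thyroid hormone receptor gene, on the opposite strand. Rora at 0.10 ± 0.11 had overlapping groups.

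Among 7 genes for clock protein turnover none passed. Usp2, a deubiquitinase gene that follows the clock, had a change of 0.78 ± 0.21 (adjusted p = 0.121). Fbxl21, a ubiquitin ligase subunit gene for cryptochromes, had one of -1.31 ± 0.44 (adjusted p = 0.22). For Fbxl21 the disrupted mice, with only 7, 4 and 6 counts, lay below all other 21 mice. Btrc at -0.43 ± 0.13 and Csnk1d at -0.14 ± 0.07 were lower in every disrupted mouse, while the groups overlapped for Csnk1e at -0.05 ± 0.14 and Timeless at 0.32 ± 0.39. Of 13 genes that follow the clock without being part of it, only Wee1, the kinase that holds back entry into mitosis, passed (0.693% of all genes tested). It rose by 0.62 ± 0.13 (adjusted p = 0.0203), from 2.58, 2.80 and 2.56 CPM to 3.71, 4.51 and 4.06 CPM. Of these 13 genes, 7 had an unadjusted p under 0.05, as did 11.0% of all genes tested. The disrupted mice lay wholly above the normal mice in 4 of the 13 (8.16% of all genes tested) and wholly below them in 4 (8.62%).

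**Figure D3:**
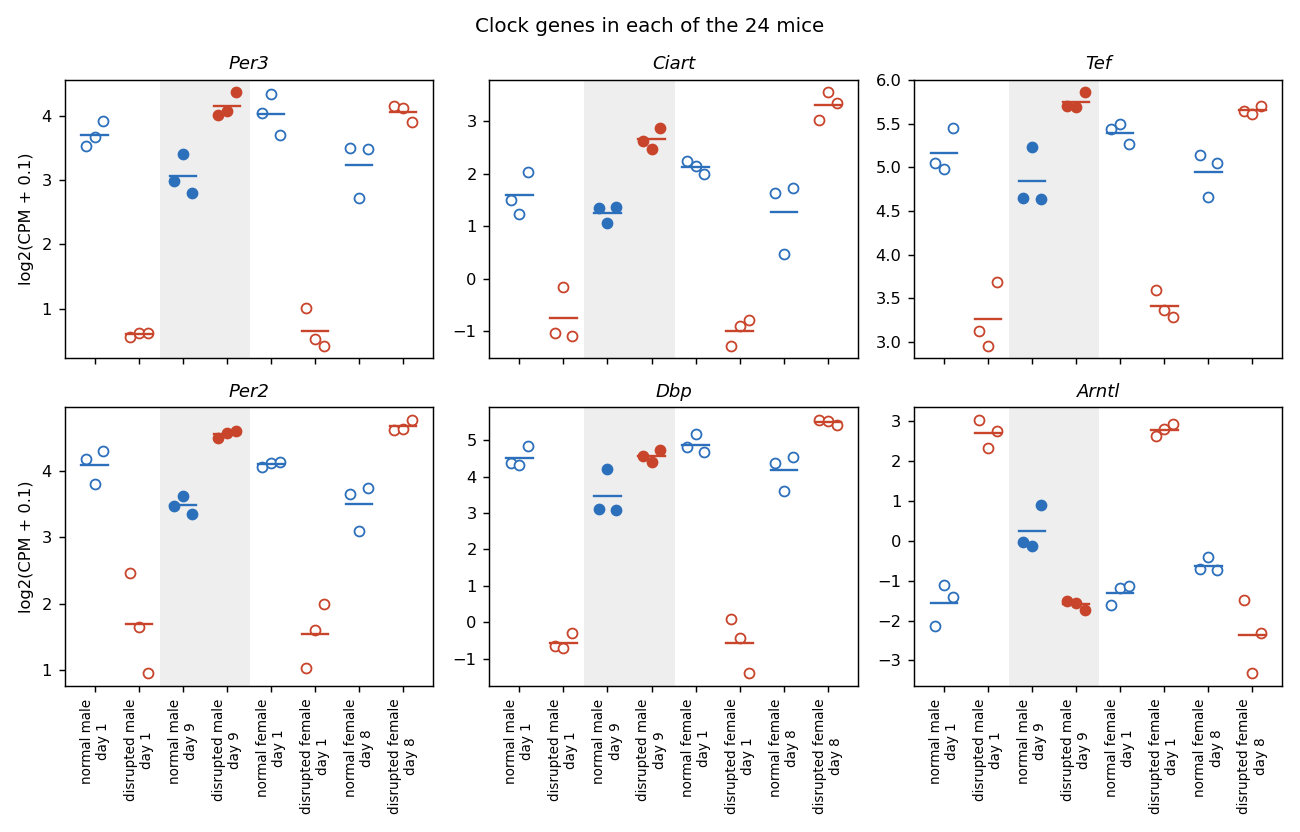
Levels of 6 clock genes as log2(CPM + 0.1), 1 point per mouse, in the 8 groups of 3 mice, drawn as in the plot of stimulus-induced genes. On day 9 the disrupted males lie above the normal males for Per3, Ciart, Tef, Per2 and Dbp and below them for Arntl, the opposite order to day 1.

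The clock calls rested on few mice. Without normal male 3 and without disrupted male 3 all 5 core clock calls were lost (adjusted p up to 0.176 and 0.139), 3 were lost without disrupted male 1, 2 each without normal male 1 and disrupted male 2, and 1 without normal male 2. In the fit of the 6 males alone 4 of the 5 remained, with Tef lost (adjusted p = 0.0896), and 7 core clock genes passed in all.

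Outside these lists the named rises were modest. Gsta3, a glutathione transferase gene, was at 3.58, 5.35 and 3.82 CPM in the normal and at 8.86, 7.05 and 9.14 CPM in the disrupted mice, a rise of 0.97 ± 0.16 (adjusted p = 0.00286). Pdxk, the kinase that makes active vitamin B6 and a known target of PAR bZIP factors in mouse brain and liver, rose by 0.76 ± 0.13 (adjusted p = 0.00324), from 4.53, 5.35 and 4.43 CPM to 7.44, 8.77 and 8.16 CPM. Both genes were higher in the 3 disrupted mice than in any of the other 21 mice, as were D930020B18Rik, Slc46a3 and Gm6741.

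D930020B18Rik, an uncharacterised protein-coding gene, rose by 1.07 ± 0.16 (adjusted p = 0.00139), from 2.10, 2.63 and 2.22 CPM to 3.93, 5.32 and 5.42 CPM. Slc46a3, a lysosomal transporter gene, rose by 0.73 ± 0.17 (adjusted p = 0.0445), and Gm6741 by 0.77 ± 0.17 (adjusted p = 0.0317). Gm6741 is annotated as a processed pseudogene, so its estimated counts may include reads of a parent gene and are uncertain. AI480526 at 0.96 ± 0.21 (adjusted p = 0.0263) and Gm38102 at 0.95 ± 0.17 (adjusted p = 0.00799) overlap in their exons on opposite strands, so their reads cannot be told apart. The calls of D930020B18Rik, Gsta3 and Pdxk held under all 16 alternatives, as did those of Sik1, Spry4 and Nfkbia, 6 of the 40 named genes called.

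Among the named falls outside the stimulus and clock lists were Errfi1 and Ddit4. Errfi1, a feedback inhibitor of the EGF receptor, was at 113, 36.0 and 141 CPM in the normal and at 11.6, 22.1 and 10.2 CPM in the disrupted mice, a fall of 2.73 ± 0.47 (adjusted p = 0.0131). Ddit4, a stress-induced inhibitor of mTORC1, fell by 2.24 ± 0.43 (adjusted p = 0.0231), from 36.7, 13.2 and 34.9 CPM to 3.93, 8.41 and 5.68 CPM. In both genes normal male 2 was the lowest normal mouse and disrupted male 2 the highest disrupted mouse. Both calls were lost in the fits of the 6 males and of the 12 males alone and without normal male 3, disrupted male 1 or disrupted male 3, that of Ddit4 also without normal male 1.

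Of the other lists, 4 held called genes, where 0.464% of all genes tested were lower and 0.229% higher. With Errfi1, Ddit4 and Nfkbia, 3 of 15 glucocorticoid-responsive genes were lower, and the list median was -0.23, with Nfkbia also in the stimulus-induced lists. Among 14 p53 targets Btg2, which is also in the stimulus-induced lists, and Plk3 were lower. Plk3, a stress-responsive kinase gene, was at -1.51 ± 0.36 (adjusted p = 0.0484) and was called under 6 of 16 alternatives. Of the 14 members 12 were negative, with a median of -0.34. Of 15 heat shock and cold-inducible genes, the co-chaperone gene Dnajb1 fell by 0.86 ± 0.19 (adjusted p = 0.0263) and Chordc1, an HSP90 partner gene, rose by 0.56 ± 0.13 (adjusted p = 0.0482), with a median of -0.03. Ddit4 was also the single gene called among 13 insulin, FOXO and mTOR genes, whose median was -0.12.

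The acinar program showed no called gene. The median was -0.03 over 34 acinar enzyme genes, 0.05 over 10 acinar transcription factor genes, -0.06 over 16 secretagogue receptor and granule release genes, and -0.08 over 13 Reg family and injury genes. Nor was any gene called among 24 unfolded protein response genes (median 0.01), 18 ATF4 targets (0.11), 22 cholesterol synthesis genes (0.03), 15 fatty acid synthesis genes (0.03), 14 NRF2 and antioxidant genes (0.03), 15 autophagy genes (-0.07) or 10 NAD and sirtuin genes (0.06). The same held for 19 interferon response genes (0.11), 7 MHC class II genes (0.23), 13 Notch and Id regulators (0.06) and 14 pancreatic cancer driver genes (-0.07). Further from 0 without a call were 17 fasting and PPAR alpha genes, 16 of them negative with a median of -0.41, and 28 proliferation genes, 22 of them negative with a median of -0.47. Of these groups, 5 fasting and 6 proliferation genes had an unadjusted p under 0.05, as did 11.0% of all genes tested.

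**Figure D4:**
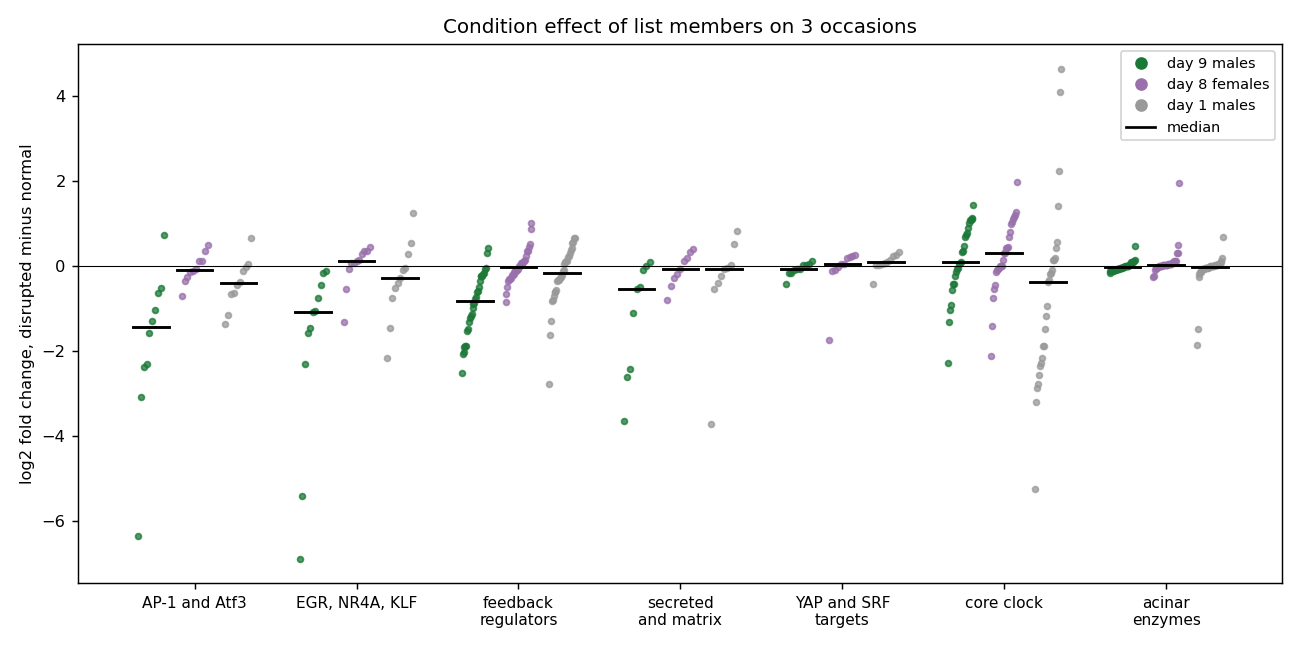
Log2 fold change, disrupted minus normal, of each measured member of 7 gene groups in day 9 males (green), day 8 females (purple) and day 1 males (grey), with a black line for the median. The 4 groups of immediate early and induced secreted genes have medians of -1.44, -1.08, -0.82 and -0.54 in day 9 males and lie near 0 in day 8 females.

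No gene was called in any of 13 lists of cell type markers. Disrupted male 1 stood apart in the lymphocyte list, with a summed level of 59.6 CPM against 0.934 to 10.1 CPM in the normal mice and 1.63 and 5.71 CPM in disrupted males 2 and 3. It was also highest for red blood cell genes (48.3 CPM, the others 11.6 to 20.7 CPM) and adipocyte genes (46.9 CPM, the others 11.3 to 35.3 CPM). Islet genes summed to 355 to 402 CPM in the normal and 269 to 595 CPM in the disrupted mice, and smooth muscle genes to 3.22 to 31.7 CPM and 5.20 to 10.1 CPM. For smooth muscle, normal male 3 stood apart at 31.7 CPM, against 3.22 and 6.03 CPM in normal males 1 and 2. The highest of the other 18 mice was at 25.2 CPM. The hepatocyte marker Apoa1 was at 0 counts in all 6 mice. Without disrupted male 1, 24 genes passed, 13 of them stimulus-induced genes that were lower. Any other part of these markers in the results was not tested.

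The condition effect of day 9 males was next set against that of day 8 females, the late time point of the other sex, in which 21 genes passed (0.15%). Sex and day of sampling go together here and cannot be told apart. The difference between the effects passed for 4 genes (0.0286%), and 904 had an unadjusted p under 0.05. Dusp1 was the only stimulus-induced gene among them, at -2.06 in day 9 males and 0.01 in day 8 females, a difference of -2.07 ± 0.32 (adjusted p = 0.0123). In the day 8 females its levels were 3.35, 2.81 and 2.84 CPM in the normal and 3.48, 3.07 and 2.55 CPM in the disrupted mice, with overlapping groups. Of the 70 stimulus-induced genes 37 had an unadjusted p under 0.05 for this difference (6.5% of all genes tested), and their median effect was 0.03 in day 8 females. Foxa3, a forkhead factor gene of endoderm organs, differed by -1.14 ± 0.21 (adjusted p = 0.0373), with -0.94 ± 0.15 in day 9 males and 0.20 ± 0.15 in day 8 females. In day 9 males it went from 9.97, 7.90 and 13.4 CPM to 5.76, 5.29 and 5.19 CPM, with the normal mice above all other 21.

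The others were Gm38102, with a difference of 1.34 ± 0.24 (adjusted p = 0.0332), and 1810019D21Rik, with 1.19 ± 0.19 (adjusted p = 0.0123). The latter overlaps Esrp2 on the opposite strand and was itself called in day 8 females at -0.81 ± 0.14. This count of 4 fell to 0 without normal male 3, disrupted male 1, disrupted male 3 or normal day 8 female 2, and was 44 without normal male 2.

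No core clock gene passed for the difference from day 8 females, and 2 of 27 had an unadjusted p under 0.05. The effects stood at 1.44 and 1.99 for Ciart (difference -0.55 ± 0.36), at 1.08 and 0.79 for Per3 (0.29 ± 0.28), at 0.89 and 0.69 for Tef (0.19 ± 0.26) and at -2.28 and -2.13 for Arntl (-0.15 ± 0.77), in day 9 males and day 8 females. With errors of this size the values do not show that the clock effects were alike.

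Against day 1 males, the difference of the condition effect passed for 201 genes (1.44%), 80 of them more positive (0.571%) and 121 more negative (0.864%) on day 9. Among the 201 were 15 of the 27 core clock genes, and the effect had the opposite sign on day 1 for Per3, Tef, Dbp and Arntl. The effect on day 1 itself passed for 180 genes (1.29%), 16 core clock genes among them. Per3 was at -3.21 ± 0.24 on day 1 and 1.08 on day 9 (difference 4.29 ± 0.32, adjusted p = 2.43e-07), Tef at -1.88 and 0.89 (2.77 ± 0.26, adjusted p = 9.52e-06), and Dbp at -5.25 and 1.01 (6.26 ± 0.51, adjusted p = 3.67e-06). Arntl was at 4.66 ± 0.35 on day 1 and -2.28 on day 9 (difference -6.94 ± 0.54, adjusted p = 8.29e-08). Per1 went from -2.78 to -0.23 (2.55 ± 0.26, adjusted p = 1.62e-05), that is, from a large effect to one that did not pass.

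Outside the clock lists, Coq8a, a gene of coenzyme Q synthesis, went from 0.80 on day 1 to -0.72 ± 0.13 on day 9 (difference -1.53 ± 0.19, adjusted p = 2.95e-05), and Ctnnbip1, an inhibitor of beta-catenin, from 0.88 to -0.65 (-1.53 ± 0.19, adjusted p = 2.63e-05). Coq8a was called on both days and on day 9 stood at 15.1, 22.3 and 17.9 CPM in the normal and 9.70, 12.3 and 11.5 CPM in the disrupted mice, the latter below all other 21 mice. Dtx1, a Notch pathway gene, went from 1.52 to -0.82 (-2.34 ± 0.28, adjusted p = 5.78e-05) and Rassf3 from 0.73 to -0.33 (-1.06 ± 0.13, adjusted p = 2.95e-05), neither of them called on day 9.

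Of the 70 stimulus-induced genes 15 passed for the difference from day 1 males (1.44% of all genes tested), 14 of them more negative on day 9 (0.864%). Fos was at 0.66 ± 0.73 on day 1 and -6.36 on day 9 (difference -7.02, adjusted p = 0.0027), and Dusp1 at -0.25 ± 0.23 and -2.06 (-1.81 ± 0.32, adjusted p = 0.003). The count of 201 was 120 without normal day 1 male 1, 125 without disrupted day 1 male 3, 128 without normal male 3, 129 without disrupted male 1 and 132 without disrupted male 3, and 14 to 16 core clock genes passed in each fit that left out 1 mouse.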

How the data were processed

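RNA-seq of total RNA from whole pancreas was deposited as RSEM expected counts per gene, estimated counts that need not be whole, made by the authors for 24 mice. Per the submitters' processing notes, bcl2fastq 2.20, STAR 2.5.3a, RSEM, edgeR 3.28.0 and GRCm38.p5 were used, with no roles given. The annotation is not given in the sources used here, nor is the strand setting. Mice were grouped by their titles, and the design text counts 3 animals of each sex in each condition at each time, so each replicate is another animal.

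For testing, the expected counts were rounded, and 7.97% of values changed by it. Genes were filtered by edgeR's filterByExpr (14000 of 51912 kept), scaled by TMM, and tested with edgeR 4.0.16 (R 4.3.3), robust quasi-likelihood, 1 mean for each of 8 groups, with 16 residual degrees of freedom, at a Benjamini-Hochberg adjusted p of 0.05. Errors of log2 fold changes are standard errors implied by the quasi-likelihood F statistic, the absolute log2 fold change divided by the square root of F. The 24 libraries held 31325562 to 62390463 counts, TMM factors were 0.943 to 1.12, and in 24 of 24 mice sex-linked genes fitted the labelled sex. The fit was checked on simulated counts that had the same spread in every group. That check does not cover genes such as Egr1, in which the normal day 9 males spread far more widely than the disrupted ones. Alternatives, given below, used DESeq2 1.42.0, limma 3.58.1 and other scalings, filters, sample sets and left-out mice. Gene positions and exon overlaps come from GENCODE on GRCm38, with 51719 genes matched. Sequences come from RefSeq on GRCm38.p6.

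The members and gene lists were chosen with earlier results of these data known, so counts within lists are descriptions. Genes were named by rule: every core clock gene, every called stimulus-induced gene, the 10 largest rises and falls among called genes with a mean log2 CPM of at least 1, up to 3 called genes of each other list, and the 5 called genes with the smallest p per direction of each difference between effects. Promoters of 6 genes are shown, chosen for the elements found in them. Some genes that meet these rules are not reported here.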

Additional observations from a re-analysis of the deposited data

Results flagged for a closer look

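The condition effect differed between day 9 males and day 8 females for 4 genes by edgeR's quasi-likelihood test of the difference itself. On the log2 scale the differences, day 9 males minus day 8 females, were 1.19 for 1810019D21Rik, 1.34 for Gm38102, -2.07 for Dusp1 and -1.14 for Foxa3. For Dusp1 and Foxa3 the effect in day 9 males was called and that in day 8 females was not. For 1810019D21Rik it was the day 8 effect that was called.

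Between day 9 and day 1 males the condition effect differed for 201 genes. Among the more positive differences with the smallest p, day 9 minus day 1, were Per3 at 4.29, Dbp at 6.26, Tef at 2.77 and Per1 at 2.55. Among the more negative differences they were Arntl at -6.94, Ctnnbip1 at -1.53, Coq8a at -1.53, Rassf3 at -1.06 and Dtx1 at -2.34. The effect had opposite signs on the days in all of these genes but Per1.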

How the results depend on the processing

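The day 9 count of 97 genes was 96 with DESeq2 size factors, 90 with upper quartile scaling, 139 with DESeq2, 143 with limma voom, 96 with a minimum of 10 counts in 3 mice and 91 without robust shrinkage. It was 165 without a filter, 60 in the 6 day 9 males alone (35 shared with the 97), 42 in the 12 males alone (40 shared), and 18 to 104 with 1 mouse left out. The difference from day 8 females, 4 genes, was 36 with DESeq2, 18 with limma voom, 16 without a filter, 1 in the 12 late mice alone and 0 to 44 with 1 mouse left out. The counts of 0 came with 758 to 869 genes at an unadjusted p under 0.05. Without disrupted day 8 female 2 it was 1, and without normal male 1, normal day 8 female 1 or disrupted day 8 female 3 it was 2. The difference from day 1 males, 201 genes, was 120 to 213 with 1 mouse left out and 187 to 275 otherwise. The causes were not tested.

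Whether replicate numbers pair the mice was not tested. Deviations from the group mean had correlations of 0.149, 0.266 and 0.00519 between same-numbered day 9 males. Between differently numbered day 9 males they ran from -0.297 to 0.186. With a replicate block the counts were 66 (55 shared with the 97), 6 and 205. The block kept 16 of the 19 stimulus-induced calls, without Btg2, Jun and Spry1, and 3 of the 5 core clock calls, without Bhlhe40 and Ciart. It kept 8 of the 16 other named calls, Errfi1 and Ddit4 being among those lost.

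For single named genes, no direction reversed among 1054 values under the alternatives, 884 kept their side of the threshold, 153 lost the call and 17 gained it. With 3 mice per group and few counts in Fos, Fosb, Egr2, Ccn1, Arntl and Fbxl21, sizes of change in low genes are uncertain. An exact permutation of 3 against 3 mice cannot go below p = 0.1.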

Other observations

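Ajm1, a gene for an apical junction protein, was chosen after its values were seen. It had 22, 15 and 18 counts in the normal and 0, 0 and 0 counts in the disrupted day 9 males, at least 6.05-fold lower against a floor of 3 counts per library. The remaining 18 mice had 1 to 52 counts. Exons of Gm26702 overlap it on the opposite strand.

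The 13 measured mitochondrially encoded genes, subunits of the respiratory chain, had a median change of 0.19. Their fitted changes ran from -0.19 to 8.74. The latter was the largest fitted rise of all genes tested, in a gene that did not pass, so it does not show a rise. In 8 of the 13 genes the disrupted day 9 males lay above the normal males (8.16% of all genes tested). None was called, and 5 had an unadjusted p under 0.05, as did 11.0% of all genes tested. In the islet list all 12 measured genes had a positive change without a call, with a median of 0.23.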
